A study of Mus musculus with 2 samples.

Results

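The Sonic hedgehog pathway was described from 9 genes of 27487 with a gene name on the array: the ligand gene Shh, the receptor gene Ptch1, the co-receptor gene Boc, the antagonist gene Hhip, the transducers Smo and Sufu, and the transcription factor genes Gli1, Gli2 and Gli3. They were chosen by gene name, with earlier results of these data known, and all 14 probes that carry one of these names were kept. Ureters were dissected from NMRI mouse embryos at E16.5 (E, embryonic day), sorted by sex and pooled, and RNA of a Pparg-cKO pool and of a control pool was hybridised together on each of 2 dual-colour arrays. The Pparg-cKO genotype was Pax2-cre/+; Pparg(fl/fl), in which cre removes exons 2 and 3 of Pparg in the nephric duct, the epithelium of the ureter and the collecting ducts. Controls were littermates without cre, labelled Pparg(fl/?), so that floxed alleles occur in both groups. Array 1 held the female and array 2 the male pools, with the dyes exchanged, so sex and dye cannot be separated. Titles and protocols gave E16.5 for every pool, whereas the stage label of the Pparg-cKO channel read E14.5. The comparison addresses whether RNAs of the pathway differ when the epithelium of the ureter lacks PPARG, a nuclear receptor.

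SHH is a secreted signal that epithelial cells release and neighbouring cells receive. Without ligand the receptor PTCH1 keeps SMO inactive, and SUFU holds back the GLI factors. When SHH binds PTCH1 with the help of co-receptors such as BOC, SMO becomes active, GLI2 and GLI3 pass the signal to the nucleus, and Gli1, Ptch1 and Hhip are transcribed as targets of the pathway. In the developing ureter Shh is expressed in the epithelium, and the surrounding mesenchyme, which forms the smooth muscle and the connective tissue, responds to it.

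Each probe was 60 bases long and was printed at 4 spots per array. The accession of 12 of the 14 probes was found in the RefSeq gene list, each time with the same symbol. Ptch1, Hhip, Smo, Sufu and Gli1 had 2 probes, which are numbered by signal with the brighter as probe 1, and the other 4 genes had 1. The first 30 bases of the probes for the ligand and the target genes are given because the differences described here were read at these sites, 5′ to 3′ with positions in mm9 as the array files state them. Exon and UTR annotation of that build was not used here.
Shh, chr5:28783983-28784042, minus strand: aatttattattgtgtgaactgtactcacag
Ptch1 probe 1, chr13:63610298-63610357, minus strand: catttggatgttttaatttgtaaaagaaaa
Hhip probe 1, chr8:82494280-82494339, minus strand: gcagtagccttcatctgtaggttaatagtc
Hhip probe 2, chr8:82490729-82490788, minus strand: tatagaattatgaccatgagcatgaaagac
Gli1 probe 1, chr10:126766967-126767026, minus strand: ggggctgtatttagtctatgtatgttccag
Gli1 probe 2, chr10:126775021-126775080, minus strand: tctgcaggagaaggtggggaagctagggcc
The Hhip probes lie 3551 bases apart and the Gli1 probes 8054, so the readings of a gene come from different sites. Gli1 probe 2 is annotated only with a cDNA clone and with no RefSeq transcript. No RNA lifted it above background on any array, so it has no usable ratio. The remaining 13 probes covered all 9 genes.

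The arrays were of similar brightness, with median probe signals between 84.5 and 89.6 scanner units in the 4 channels, and no probe spot was saturated. In red 70.4% of probe spots were well above background on either array, and in green 80.3% on array 1 and 80.4% on array 2. Across the 28298 probes that were well above background the ratios of the arrays were weakly inverse by rank (Spearman's rho = -0.25). Their linear correlation was near 0 (Pearson's r = -0.07). Both values are across probes, which share their arrays and are not independent replicates. The SD across these probes was 0.23 for the mean ratio and 0.25 for the difference of the arrays divided by 2. The part of dye or sex in this was not tested. Of the 112 spots of the pathway probes 3 were left out as flagged, 1 each of Sufu probe 2 on array 1 and of Boc and Hhip probe 1 on array 2.

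Which RNA came from which genotype is not settled by the labels, since the labelled dyes give the opposite direction to that of the study, for both arrays. Neutral names are used instead. RNA A carried AlexaFluor647 (red) on array 1 and AlexaFluor555 (green) on array 2, and RNA B carried the other dye. By the dye labels RNA A is the control, whereas the deposited fold changes ran as RNA A over RNA B (r = 0.997 on either array over 18540 probes with all signals of at least 100) and make RNA A the Pparg-cKO if they are Pparg-cKO over control. Every ratio below is log2 of RNA A over RNA B, so a negative value is a brighter RNA B, and it is read as lower in Pparg-cKO only under the study's direction and as higher in Pparg-cKO by the dye labels. Pparg itself, the targeted gene, gave 11295 for RNA A against 7430 for RNA B on array 1 and 12888 against 7872 on array 2 (mean ratio of 0.66 ± 0.08, limma adjusted p = 0.581). Because the deleted allele can still make a transcript without exons 2 and 3 and the exon under this probe was not determined, the probe does not check the genotypes.

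Shh had the largest mean ratio of the 13 pathway probes, with RNA B brighter. On array 1 its signal was 36.5 for RNA A against 75.5 for RNA B, and on array 2 it was 33.7 against 87.3. The signals of RNA B were thus above those of RNA A on both arrays without overlap. All 4 were below 100 and below the median probe signal of their channel, RNA A by more than RNA B. They were well above background at every spot. The log2 ratio was -1.05 on array 1 (SD of 0.21 over 4 spots, from -1.22 to -0.77) and -1.37 on array 2 (SD of 0.04 over 4 spots, from -1.43 to -1.34). RNA B was therefore 2.07-fold brighter on array 1 and 2.59-fold on array 2. The mean was -1.21 ± 0.23 (SD, n = 2 arrays), with a limma SE of 0.21 and a Benjamini-Hochberg adjusted p of 0.0453. The call was narrow: it was lost with 1 probe per gene (adjusted p = 0.0742), after loess on the processed signals (adjusted p = 0.0579) and under 4 other settings given in the closing section, while the ratio stayed negative. In bulk tissue, fewer Shh-expressing cells and less Shh RNA per cell cannot be told apart.

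**Figure D1:**
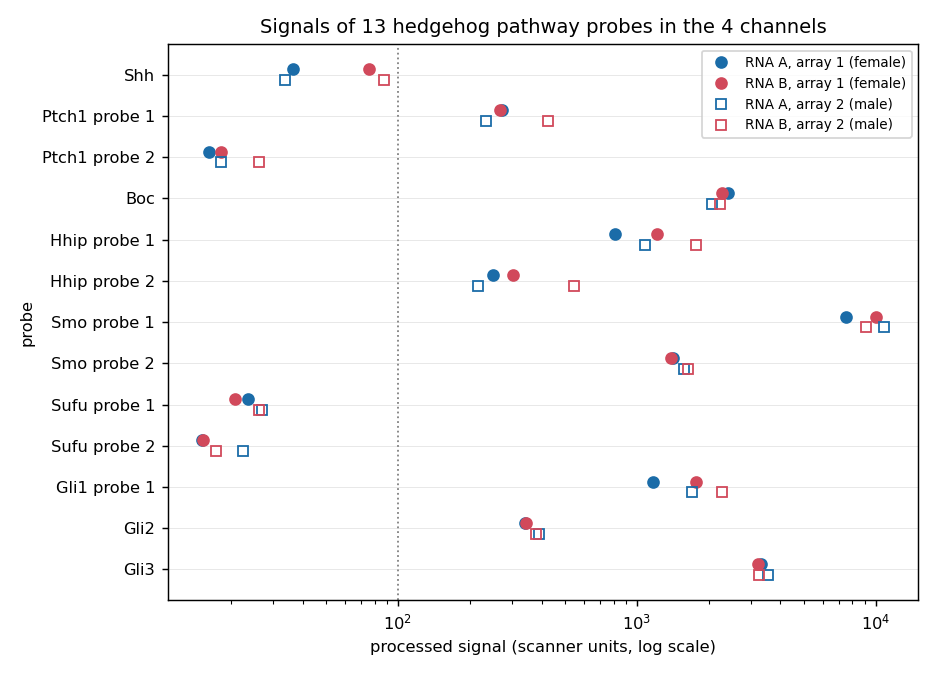
Processed signal (log axis, scanner units) of 13 probes of the 9 pathway genes in RNA A (blue) and RNA B (red) on array 1 (filled circles, female) and array 2 (open squares, male), where the dotted line marks a signal of 100. The signals of RNA B lie above those of RNA A on both arrays for Shh, both Hhip probes, Gli1 and Ptch1 probe 2, and signals of different probes are not comparable with each other.

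Shh ranked 69th from the lowest mean ratio among the 28298 probes. Among 3401 genes whose probe was within 1 log2 unit of the mean signal of Shh, the nearest ratios on the 2 arrays were those of Fcmr, a receptor for immunoglobulin M (-1.26 and -1.47, distance of 0.23 over 2 arrays), Tmem56, a transmembrane protein gene (-1.25 and -1.51, distance of 0.24), and a probe with no gene name, A_55_P2187211 (-0.99 and -1.64, distance of 0.28). A likeness over 2 arrays is a description of these ratios only.

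Of the genes at the receiving membrane, Hhip had the most negative ratios. Its product binds the ligand and limits its action, and the gene is itself a target of the pathway. Hhip probe 1 read 815 for RNA A against 1213 for RNA B on the female array and 1085 against 1765 on the male array. Both RNA B values exceeded both RNA A values. These are log2 ratios of -0.57 and -0.70 with spot SDs of 0.01 and 0.02, or 1.49-fold and 1.63-fold in favour of RNA B. Hhip probe 2 read 251 against 302 on the female array and 216 against 547 on the male array. RNA B was the brighter on both arrays here too, but by 1.21-fold on array 1 and by 2.53-fold on array 2 (-0.27 and -1.34), a disparity many times the spot SD of 0.05 on either array. The means of the probes, -0.64 ± 0.09 and -0.80 ± 0.76 (SD, n = 2 arrays), did not pass limma (adjusted p = 0.631 and 0.655).

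Ptch1, which encodes the receptor and is induced by the pathway, was uneven between the arrays. For Ptch1 probe 1, RNA A gave 272 and RNA B gave 268 on array 1, whereas array 2 gave 234 against 426. The RNAs differed by less than the spot SD on the female array, and RNA B was 1.82-fold brighter on the male array. The log2 ratios were 0.02 and -0.86 with spot SDs of 0.03 and 0.06, and the mean of -0.42 ± 0.62 did not pass limma (adjusted p = 1.00). Ptch1 probe 2 was dim, at 16.2 and 18.1 on array 1 and 18.2 and 26.3 on array 2. Its ratios of -0.17 and -0.53 were both negative, but the first was smaller than its spot SD of 0.30. Boc, a co-receptor that presents the ligand, had signals between 2068 and 2407 in all 4 channels. Its ratios of 0.08 and -0.11 had opposite signs and averaged -0.02 ± 0.14, which is no difference beyond the spread of the arrays.

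Of the signal transducers, Smo was bright and Sufu dim. For Smo probe 1, RNA A gave 7553 and RNA B gave 10034 on array 1, whereas array 2 gave 10885 against 9103. The brighter RNA was the one labelled with AlexaFluor555 both times, so that the ratios of -0.41 and 0.26 had opposite signs. Smo probe 2, 306 bases away, had signals from 1395 to 1634 and ratios of 0.03 and -0.05. The Smo probes thus gave means of -0.08 ± 0.47 and -0.01 ± 0.05. The Sufu probes had signals from 15.1 to 27.0 in all channels. Sufu probe 1 had ratios of 0.17 and 0.05, each within its spot SD of 0.38 and 0.36, and Sufu probe 2 had ratios of -0.02 and 0.38. Its spot SD was 0.23 on both arrays, so that repeated spots of Sufu differed about as much as the RNAs did.

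The GLI factors divided into the target Gli1 and the transducers Gli2 and Gli3. Gli1 probe 1 read 1166 for RNA A against 1766 for RNA B on the female array and 1703 against 2285 on the male array. RNA B was the brighter on both arrays, by 1.51-fold and 1.34-fold, while RNA A of array 2 nearly reached RNA B of array 1. The log2 ratios were -0.60 and -0.42 with spot SDs of 0.02 on both, and the mean of -0.51 ± 0.12 had an unadjusted limma p of 0.0311 and an adjusted p of 1.00. Gli2, the main activator of the pathway, had signals of 342, 344, 390 and 381 in RNA A and RNA B of array 1 and then of array 2. Gli3, which acts mainly as a repressor, had signals of 3325, 3220, 3538 and 3259 in the same order. Neither RNA stood out for either gene, with mean ratios of 0.01 ± 0.03 for Gli2 and 0.08 ± 0.05 for Gli3.

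**Figure D2:**
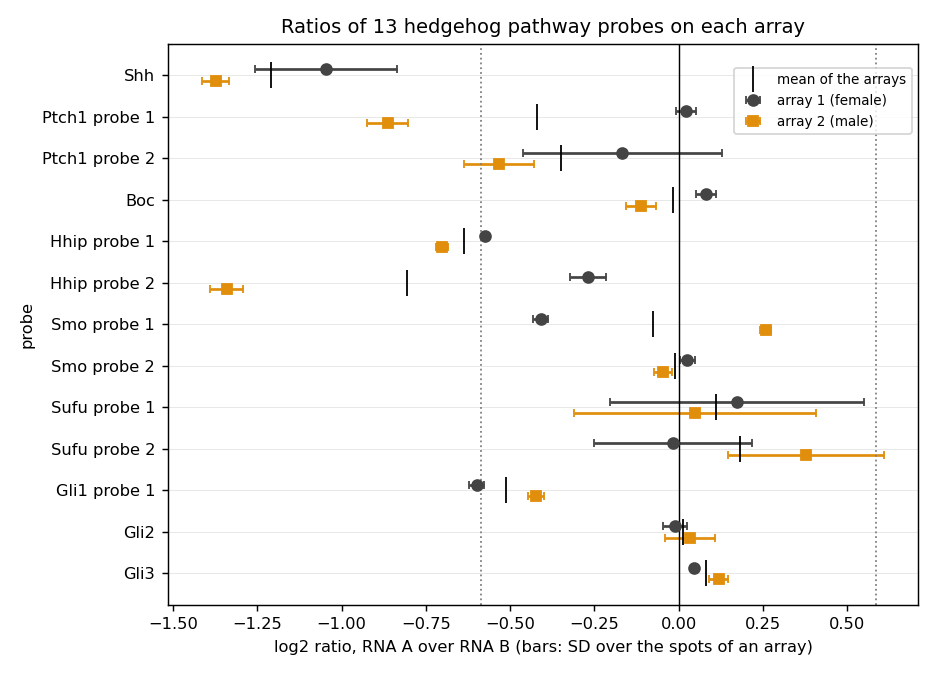
Log2 ratio of RNA A over RNA B for 13 pathway probes on array 1 (circles, female) and array 2 (squares, male), with bars for the SD over the spots of an array, ticks for the mean of the arrays and dotted lines at 1.5-fold. Shh, Gli1, both Hhip probes and Ptch1 probe 2 lie left of 0 on both arrays, Ptch1 probe 1 only on array 2, and Boc, Smo probe 2, Gli2 and Gli3 lie within 0.12 of 0.

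Read as a group, 5 of the 13 probes favoured RNA B on both arrays, those of Shh, Hhip, Gli1 probe 1 and Ptch1 probe 2, where 17.8% of all tested probes were. Another 2 probes, Sufu probe 1 and Gli3, were brighter in RNA A on both (21.4% of all probes), and 6 had opposite signs. Probes of 1 gene, such as those of Hhip, read the same RNAs and are not independent. With 1 probe per gene, 3 of the 9 genes (Shh, Hhip and Gli1) favoured RNA B on both arrays, against 17.4% of all genes. limma called 1 of the 13 probes, Shh, in favour of RNA B and none in favour of RNA A, where it called 0.194% and 0.138% of all tested probes in these directions. Unadjusted p-values were under 0.05 for 4 of the 13 probes, Shh, both Hhip probes and Gli1 probe 1, all of them with RNA B brighter, and, over the whole array, for 463 probes in favour of RNA A and 619 in favour of RNA B, or 3.82% of all tested probes. The median of the mean ratios was -0.08 over the 13 probes and 0.01 over all tested probes.

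A fold rule was applied as well, which asks for 1.5-fold or more in 1 direction on both arrays and, for whichever RNA is brighter, a signal of 100 or more. No pathway gene met it, where 0.167% of 29895 genes did so in favour of RNA A and 0.248% in favour of RNA B (a probe with no gene name was counted as a gene). The genes just outside it were Shh, whose fold was large enough but whose signal was below 100, Hhip, whose probe 1 was 1.49-fold on array 1, and Gli1, whose probe 1 was 1.34-fold on array 2. With a signal minimum of 50 Shh met the rule, and Hhip met it after each array was centred on its median.

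**Figure D3:**
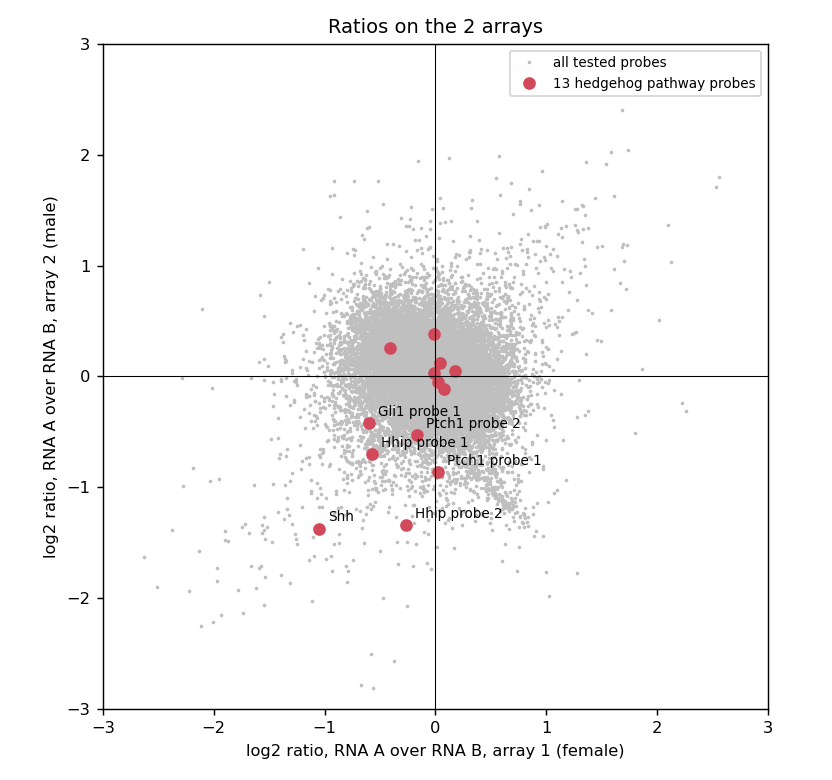
Log2 ratio of RNA A over RNA B on array 1 (horizontal axis, female) and array 2 (vertical axis, male) for 28298 tested probes (grey) and 13 pathway probes (red), with 9 grey probes beyond the axes. Shh, Hhip, Gli1 and Ptch1 probe 2 lie in the quadrant where RNA B is brighter on both arrays, and Ptch1 probe 1 lies beside the vertical zero line.

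Because each dye carried RNA A once and RNA B once, the same 4 signals were also compared within a dye, which sets female against male pools but the same label. Shh was 2.39-fold brighter in RNA B in red and 2.24-fold in green, so that its difference was as large within either dye. Hhip probe 2 was brighter in RNA B by 2.18-fold in red and 1.40-fold in green, and Ptch1 probe 1 by 1.57-fold and 1.14-fold. Gli1 probe 1 was 1.96-fold brighter in RNA B in red and 1.04-fold in green, and Hhip probe 1 was 2.17-fold and 1.12-fold. Both RNAs read higher on array 2 at these probes, which enters a fold taken across arrays, and within the arrays their folds were 1.51 and 1.34 for Gli1 and 1.49 and 1.63 for Hhip. Ptch1 probe 2 was 1.63-fold brighter in RNA B in red and 0.998-fold in green. Over all tested probes the median within-dye fold of RNA B over RNA A was 1.05 in red and 0.935 in green.

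A further 29 genes of the pathway were examined with 1 probe each, all of them above background. None passed limma, which called 0.388% of 21371 genes when probes of both directions were counted, or the 1.5-fold rule, and none did after loess on the processed signals or median centring. None met the fold rule without a signal minimum either. Unadjusted limma p-values were under 0.05 for 2 of the 29, Ihh and Foxf1, and for 3.87% of all genes. RNA B was the brighter on both arrays for 6 genes and RNA A for 4, where 17.4% and 21.6% of all genes were, and 19 had opposite signs. The median of the mean ratios was -0.05, with -0.22 on array 1 and 0.11 on array 2.

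Among the ligands, Ihh, known from cartilage and gut, was dim, at 12.4 against 23.0 on array 1 and 14.8 against 17.7 on array 2 (-0.90 and -0.26). Dhh, known from Schwann cells and the testis, had ratios of 0.24 and 0.26. The ligands thus lay on opposite sides of 0. Of the genes for ligand processing and release, Disp1, which releases the lipid-bearing ligand from the cell, had the highest mean (0.09 ± 0.02) and Scube2, a secreted carrier, the lowest (-0.13 ± 0.75, and -0.17 ± 0.09 at a dimmer probe). Of the co-receptors, Gas1 had a mean of 0.08 ± 0.29 and Cdon one of -0.11 ± 0.23, each with opposite signs on the arrays. The dimmer probes of Gas1 disagreed, with mean ratios of 0.13 and -0.13, and that of Cdon had -0.26.

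Of the 9 genes of signal transduction, Gpr161, a ciliary receptor that holds the pathway in check, had the highest mean (0.29 ± 0.01), and Evc2, a partner of SMO at the cilium, had the lowest (-0.19 ± 0.05). Both had the same sign on both arrays, at dim signals from 13.3 to 19.1 for Gpr161, but a dimmer probe of Evc2 had opposite signs (-0.31 and 0.18). Of the ciliary genes, Kif3a, a kinesin motor, had the highest (0.23 ± 0.21) and Arl13b, a small GTPase, the lowest (0.02 ± 0.08). Their dimmer probes had the reverse order, with means of 0.06 ± 0.09 for Kif3a and 0.25 ± 0.25 for Arl13b, so that no order of the ciliary genes can be read. Of the 8 mesenchymal targets, Mycn, which promotes proliferation, had the highest mean (0.08 ± 0.27). Foxf1, a transcription factor gene of mesenchyme next to SHH-producing epithelia, had the lowest, with 1360 for RNA A against 2847 for RNA B on the female array and 2589 against 3352 on the male array. It was the only one of the 8 targets that favoured RNA B on both arrays, at -1.07 and -0.37, and its mean of -0.72 ± 0.49 did not pass limma (adjusted p = 0.624). A dimmer probe of Foxf1 gave -0.51 and -0.71. Aldh1a2, which makes retinoic acid, and Bmp4, a signal of the same mesenchyme, had mean ratios of -0.02 ± 0.11 and -0.11 ± 0.31.

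**Figure D4:**
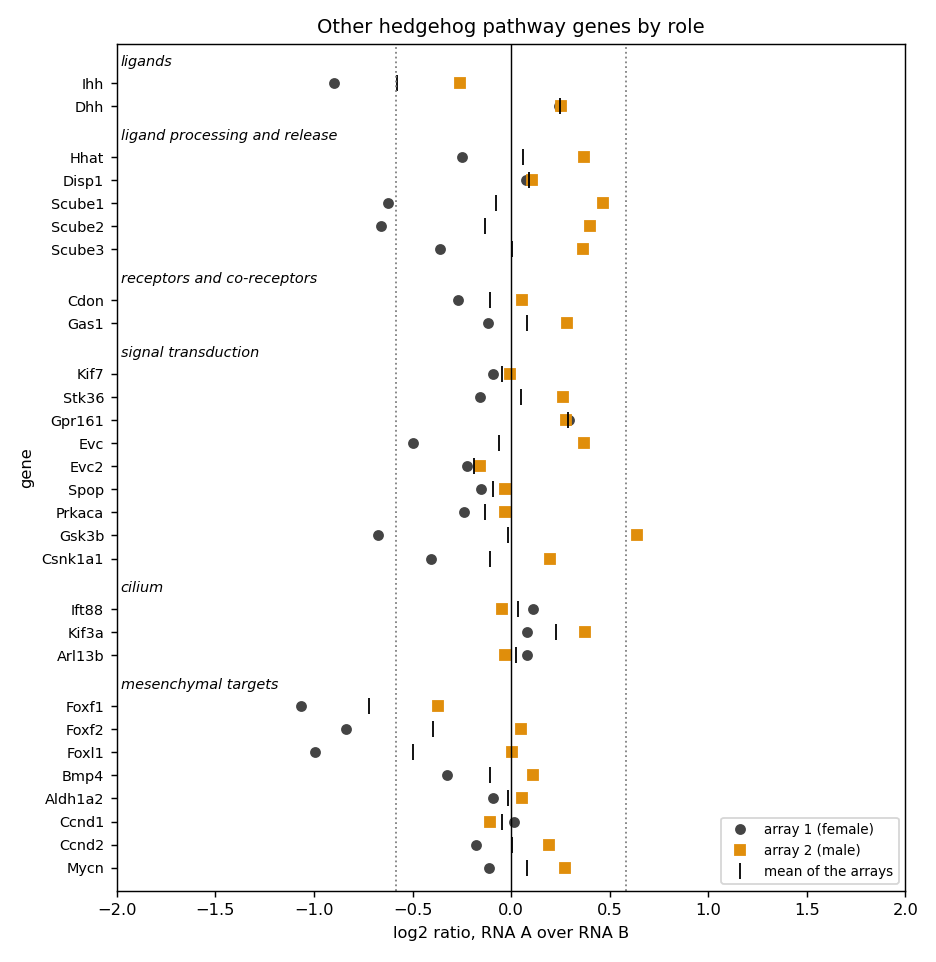
Log2 ratio of RNA A over RNA B on array 1 (circles, female) and array 2 (squares, male) for 29 further pathway genes by role, with ticks for the mean and dotted lines at 1.5-fold. Foxf1, Ihh, Evc2, Kif7, Spop and Prkaca lie left of 0 on both arrays, and 19 genes have their arrays on opposite sides.

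Markers of several cell types differed in the same direction as Shh, and markers of some others in the opposite direction. Of 8 genes of the urothelium, the epithelium of the ureter, 6 favoured RNA B on both arrays. The summed signals were 52844 in RNA A against 84708 in RNA B on array 1 and 51635 against 88402 on array 2. Bright probes weigh most in such sums. Here Upk3a alone gave 32480 against 50577 on array 1 and 30472 against 51988 on array 2. Krt5, a marker of basal cells, was instead brighter in RNA A on both arrays (0.26 and 0.67). Of 5 general epithelial genes, 2 favoured RNA B on both arrays and 3 had opposite signs, with sums of 58900 against 86616 and of 75416 against 80635. Of 6 smooth muscle genes, 5 favoured RNA B on both arrays, with summed signals of 77351 against 98500 on array 1 and 73649 against 128874 on array 2. The 5 genes of the ureteric mesenchyme, in which the pathway is received, had a median of the mean ratios of -0.05, with opposite signs on the arrays for 4 of them. Their sums were 114050 against 141738 and 138635 against 122186. Col1a1, at 32033 against 55847 and 53404 against 33493, changed direction between the arrays as these sums did. Genes that define the labelled tissue, the uroplakins, smooth muscle and mesenchymal genes, were thus detected in every channel. Of 6 nephron genes, 3 (Umod, Slc12a1 and Nphs1) were not above background, and 2 of the other 3 favoured RNA B on both arrays. Slc34a1 was 1 of these, with ratios of -2.31 and -3.15 at dim signals from 4.20 to 37.2. limma called this probe (adjusted p = 0.00269), 1 of 2 tested for the gene. Summed signals of all 6 genes were 124 against 230 on array 1 and 34.9 against 79.0 on array 2. Summed signals of 3 liver genes were 5891 for RNA A against 5543 for RNA B on array 1 but 1864 against 4812 on array 2, so that the liver genes differed on the array on which Ptch1 probe 1 and Hhip probe 2 differed most. The part of these markers in the ratios of the pathway genes was not tested.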

How the data were processed

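RNA from pools of sex-sorted E16.5 mouse ureters was measured on 2 dual-colour arrays, 1 female and 1 male, grouped by the labels. The deposited processed intensities came from Feature Extraction (version 10.7.3.1, per the file headers), after background subtraction and dye normalisation (linear and LOWESS), with positions in mm9. Intensities near background were replaced there by surrogate values, which affected no tested pathway probe. The dyes were checked with the deposited log10 ratios, of which 88.9% on either array equalled red over green of the processed signals to within 0.001. The authors' deposited value table, which holds signed fold changes of unstated direction, served as an alternative.

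Control spots (17263 per array) and flagged spots (5705 and 5579) were removed, and each probe's value was the mean log2 processed signal of its remaining spots. A ratio was computed within each array, red over green on array 1 and green over red on array 2. Probes well above background in at least 0.5 of kept spots on both arrays in 1 or both RNAs (28298) were fitted with limma 3.58.1 in R 4.3.3 (intercept, eBayes), with Benjamini-Hochberg adjustment at 0.05 over all of them. With 2 arrays, the fit has 1 residual degree of freedom per probe, and in 1 simulated data set of the same size more than the nominal share of limma's calls were false. The simulated noise was independent between arrays and was not taken from these data, so that share may not hold for them. P-values cover the spread of 2 pools, in which sex, dye and biological variation cannot be told apart. Both arrays lay on 1 slide, which left no batch to use as a block. The number of arrays limits the precision.

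The 1.5-fold rule uses the fold and the signal of 100 that the study applied to the individual arrays, with the signal read here as that of the brighter RNA. The study did not state which signal its limit was read from. Its list of genes decreased at this stage held Shh, so the rule here is not the same filter. Named genes were the members with every probe, the other pathway genes that passed a test or had the highest or lowest mean of their role, the 3 genes nearest to Shh in their ratios, and Pparg. Genes at the edges of a rule, Aldh1a2, Bmp4, Krt5, Upk3a, Col1a1, Slc34a1, Fxyd4, Cpa3 and the dim nephron markers were named after their values were seen. Members and lists were chosen with earlier results of these data known. Alternatives were normexp (offset of 50) with loess, loess on processed signals, median centring, the deposited table, other spot summaries, probe filters and variance models, a separate channel fit, other fold and signal limits, and leaving out each array. Marker lists for endothelium, red blood cells, macrophages, mast cells, collecting duct, nerve and glia, and adrenal and gonad were checked too and had medians of the mean ratio of 0.08, 0.02, 0.15, 0.68, 0.12, 0.17 and 0.07. That of the liver list was -0.47 and that of the nephron list -1.15. Of the list of other pathway genes 1 gene is not reported here.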

Additional observations from a re-analysis of the deposited data

Results flagged for a closer look

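For 6 of the 13 tested pathway probes the ratios of the female and the male array had opposite signs, with 1 array per sex. The log2 ratio of array 1 minus that of array 2 was 0.88 for Ptch1 probe 1, -0.67 for Smo probe 1, -0.40 for Sufu probe 2, 0.19 for Boc, 0.0729 for Smo probe 2 and -0.0458 for Gli2. The differences were not tested, and sex and dye cannot be told apart in them. For Ptch1 probe 1, Sufu probe 2 and Gli2 a ratio lay within its spot SD of 0, so their signs carry little.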

How the results depend on the processing

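The mean log2 ratio of Shh was negative under all 10 alternative settings of the fit, from -1.23 to -0.88, and was called under 4 of them. It was not called after normexp and loess (-0.88, adjusted p = 0.287), after loess on processed signals (-1.22, adjusted p = 0.0579), or, at an unchanged -1.21, from the deposited value table (adjusted p = 1.00), with no filter on dim probes (adjusted p = 1.00), with 1 probe per gene (adjusted p = 0.0742) or in the separate channel fit (adjusted p = 0.226). The cause was not tested. The count of pathway probes called by limma was 0 under these 6 settings and 1 under the other 4. Without 1 array the mean of Shh ranged from -1.37 to -1.05, with no test. No other pathway probe was called under any of the 10 settings, under which only Gli2 turned its sign, to -0.00068 under median centring. Leaving out an array turned the sign of Ptch1 probe 1 (to 0.02), Boc (to 0.08), Smo probe 2 (to 0.03), Sufu probe 2 (to -0.02) and Gli2 (to -0.01) without array 2, and of Smo probe 1 (to 0.26) without array 1. The count of pathway genes past the 1.5-fold rule was 1 (Shh) with no signal minimum, a minimum of 50, or well above background in its place, and 1 (Hhip) by the mean ratio, after normexp and loess, or after median centring. It stayed 0 with a minimum of 200, with 2-fold, after loess on processed signals and from the deposited table, and was 1 (Gli1) to 2 (Hhip and Ptch1) when array 2 or array 1 was left out. Over all probes limma called 94 in the main setting, 5 after normexp and loess, 131 with the median over spots, 1 in the separate channel fit, and 0 from the deposited table or with no filter on dim probes. No paired analysis was possible because each ratio is already taken within an array and there is a single group of ratios.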
